A study of Arabidopsis thaliana with 24 samples.

Results

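The 200 most abundant long non-coding RNAs (lncRNAs) of Arabidopsis thaliana seedlings were followed through heat, salt and loss of EXA1. They were all genes of the deposited count table with the biotype lncRNA, chloroplast and mitochondrial identifiers left out, and were chosen by their measured share of a library's counts, averaged over 24 libraries. The 200 highest were taken from 3481 nuclear lncRNA genes, of which 1991 had at least 1 count, in a table of 32833 genes. The libraries came from whole 9-day-old seedlings grown on 1/2 MS medium with sucrose and fell into 8 groups of 3, which the series text calls biological replicates. The heat series held exa1-1 at 39 °C, wild type at 39 °C, exa1-1 at 23 °C and wild type at 23 °C. The salt series held exa1-1 with 200 mM NaCl, wild type with 200 mM NaCl, exa1-1 on 1/2 MS and wild type on 1/2 MS. Each treatment lasted 60 min. The wild type was Col-0, and exa1-1 is a mutant line of EXA1 (AT5G42950), a gene for a GYF-domain protein. Since whole seedlings were sampled, fewer cells of a type and less RNA per cell cannot be told apart.

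Plant lncRNAs are transcribed and often capped and polyadenylated like messenger RNAs, but carry no long open reading frame. Many are natural antisense transcripts, read from the strand opposite a protein-coding gene, and they can alter the transcription, processing or stability of the RNA made from that gene. Others lie between genes, act as precursors or decoys of small RNAs, or have no known role. In an unstressed or stressed seedling their levels are usually far below those of messenger RNAs.

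The feature that most of these RNAs shared was their place in the genome. A protein-coding gene lay opposite 190 of the 200 (95%), against 35.7% of the 3281 other nuclear lncRNA genes and 57.1% of the 1791 of those with counts. The ranking used counts with no correction for length, and a ranking by mean FPKM shared 133 of the 200. The part of length, or of reads from the opposite gene, in this contrast was not tested. The 190 members faced 190 different coding genes, and 185 of them overlapped at least 1 coding base. In 110 an exon covered the opposite gene's coding start with the 60 bases from it, or fewer where the first coding segment was shorter. To show how an abundant lncRNA lies across the gene it faces, that stretch is given for 3 pairs, from the RefSeq annotation of TAIR10.1, with the start codon (or its reverse complement) in capitals. The first is AT3G07365 opposite HSP17.4, a small heat shock protein, at chr3:16984674-16984733. The second is AT2G08665 opposite LHB1B2, a light-harvesting chlorophyll a/b-binding protein, at chr2:14523454-14523513. The third is AT5G01815 opposite AT5G10695, annotated as a methionyl-tRNA synthetase, at chr5:3377817-3377876.
AT3G07365 (plus strand): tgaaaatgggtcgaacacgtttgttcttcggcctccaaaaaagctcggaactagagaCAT
HSP17.4 (minus strand): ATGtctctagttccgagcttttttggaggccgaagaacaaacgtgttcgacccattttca
AT2G08665 (plus strand): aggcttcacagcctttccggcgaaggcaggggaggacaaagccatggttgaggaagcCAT
LHB1B2 (minus strand): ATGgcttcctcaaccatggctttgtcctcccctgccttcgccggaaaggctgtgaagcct
AT5G01815 (minus strand): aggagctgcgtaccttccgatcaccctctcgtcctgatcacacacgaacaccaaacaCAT
AT5G10695 (plus strand): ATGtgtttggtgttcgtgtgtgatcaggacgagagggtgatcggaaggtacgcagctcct
Each lncRNA line is the reverse complement of the line under it, so reads from both genes of a pair can be told apart only by strand.

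The 200 RNAs took 0.173% to 0.323% of all counts in a library, and 81.9% of the counts of all nuclear lncRNAs. Their mean share ran from 2.27 to 203 CPM (counts relative to the library total, in the usual unit) with no further scaling, with a median of 5.69, and the 2 most abundant held 18% and the top 10 32.6% of the counts of the whole group. The members' share of all counts was 0.212% ± 0.0216 in exa1-1 and 0.252% ± 0.0642 in wild type at 39 °C, against 0.232% ± 0.00771 and 0.215% ± 0.00974 at 23 °C, and 0.189% ± 0.00132 and 0.191% ± 0.0176 under NaCl, against 0.178% ± 0.00838 and 0.184% ± 0.0100 on 1/2 MS (SD, n = 3 each). Without the 2 most abundant members, the share of the others was 0.0991% ± 0.00610 in exa1-1 and 0.109% ± 0.0237 in wild type at 39 °C, against 0.218% ± 0.00493 and 0.198% ± 0.00803 at 23 °C, lower in every heated library than in any unheated one. Relative to total counts, the median log2 change of all genes with heat was -1.08 in exa1-1 and -0.95 in wild type, so such a fall was not particular to these RNAs. For all 200 members, exact two-sided permutation tests of the 8 comparisons gave p from 0.1, the smallest that 3 against 3 allows, to 0.7 (Benjamini-Hochberg adjusted 0.533 to 0.7). At the lower border AT3G01205 and AT2G08865 had 2.28 and 2.27 CPM, and AT4G36808 and AT4G09785, which just missed the list, had 2.26 and 2.25 CPM. Their exonic length had a median of 1488 bases (201 to 7249), and 121 had 1 exon. The exons of 35 members lay wholly within exons of the opposite gene, and in 136 at least 50% of the exonic length did. On the same strand 29 members overlap another gene, AT2G08665, AT5G01815, AT1G04183, AT4G26582, AT3G51075 and AT3G24518 among those named below, and their counts are uncertain for that reason. Of the 10 members with no coding gene opposite, 6 faced another kind of gene and 4 faced none. They were spread over chromosomes 1 to 5 as 60, 39, 33, 33 and 35 genes. In the ranking of single groups, 108 of the 200 were among the top 200 in all 8 groups and 6 in only 2 groups. Those 6 entered through the condition in which they were high (4 at 39 °C, 1 under NaCl and 1 at 23 °C), so their differences there follow from the choice and are given below with no test.

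Depth was even, at 17658196 to 20992263 counts per library. EXA1 checked the genotype labels: its level was 21.4 ± 4.31 CPM in exa1-1 and 179 ± 9.22 CPM in wild type at 39 °C (SD, n = 3 each), and it was lower in exa1-1 of each of the other 3 conditions too (edgeR, adjusted p of 6.2e-12 or less). All further levels are CPM after TMM scaling, a scaling that sets the bulk of genes equal between libraries, done within each series. Summed over the marker lists, shoot markers were at 15660 to 18017 CPM in wild type at 39 °C and 7072 to 7293 CPM at 23 °C, and root markers at 298 to 308 CPM and 1152 to 1171 CPM in the same groups. Root markers were also lower under NaCl in wild type, at 1014 to 1040 CPM, against 2295 to 2617 CPM on 1/2 MS. In exa1-1 they were at 1268 to 1328 CPM under NaCl, against 2329 to 2585 CPM on 1/2 MS. Shoot markers were higher under NaCl, at 5224 to 5476 CPM in exa1-1 and 8687 to 9679 CPM in wild type. On 1/2 MS they were at 4500 to 4719 CPM and 4947 to 5806 CPM. The summed level of the seed storage markers ranged from 0.096 to 77.0 CPM, highest in an exa1-1 library at 39 °C, and pollen markers reached at most 0.0995 CPM. The part of these shifts in the results below was not tested. Calls are changes with an adjusted p under 0.05 in edgeR's quasi-likelihood test over all genes, with Benjamini-Hochberg adjustment.

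**Figure D1:**
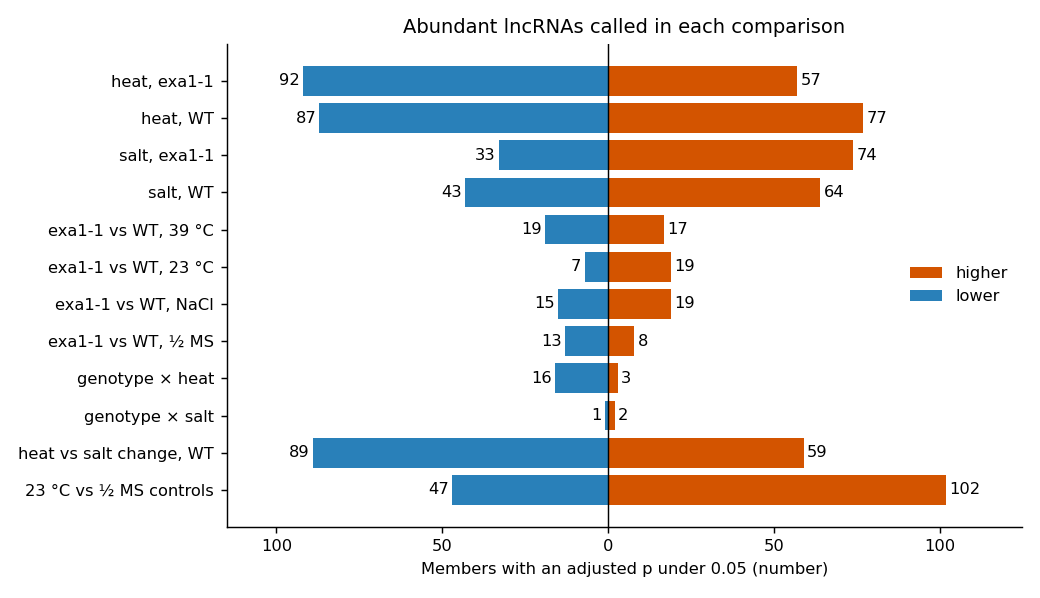
Number of the 200 lncRNAs called higher (right) or lower (left) in each comparison, at an adjusted p under 0.05 (edgeR). Heat and salt call many members, with 77 higher and 87 lower in heated wild type, and the genotype comparisons and their interactions call few.

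Among the 10 most abundant members, the first 2 stood apart. AT3G07365 (chr3:16984335-16984787, plus strand, 1 exon) lies wholly within HSP17.4 on the other strand. It was at 915, 1201 and 1031 CPM in exa1-1 and at 1130, 1531 and 893 CPM in wild type at 39 °C, against 0, 0.0337 and 0.0361 CPM in exa1-1 and 0.213, 0 and 0.0352 CPM in wild type at 23 °C. The 3 libraries of each 23 °C group held 2 counts in exa1-1 and 6 in wild type, so all heated libraries lay far above all unheated ones, and the size of the ratio is loosely set. It was 45320 (95% counting interval 12545 to 374230) in exa1-1 and 15661 (7195 to 42678) in wild type. Under NaCl the RNA was at 1.39 ± 0.751 CPM in exa1-1 and 1.05 ± 0.665 CPM in wild type, against 0.283 ± 0.0965 CPM and 0.288 ± 0.143 CPM on 1/2 MS, and was called higher in both (log2 change 2.30 ± 0.53, SE, adjusted p = 0.00055 in exa1-1, and 1.83 ± 0.58, adjusted p = 0.0054, in wild type). Without wild-type replicate 1 under NaCl the call in wild type was lost (1.23, adjusted p = 0.0675).

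AT2G08665 (chr2:14522522-14523568, plus strand), opposite LHB1B2, had the second highest share and was higher under both treatments in both genotypes. It was at 457, 657 and 539 CPM in exa1-1 and 769, 917 and 556 CPM in wild type at 39 °C, against 116, 111 and 80.1 CPM in exa1-1 and 122, 140 and 108 CPM in wild type at 23 °C. In the salt series it was at 21.6, 21.4 and 19.8 CPM in exa1-1 and 85.4, 21.5 and 47.9 CPM in wild type under NaCl, against 8.43, 7.14 and 7.46 CPM in exa1-1 and 19.8, 13.4 and 16.5 CPM in wild type on 1/2 MS. All heated libraries lay above all libraries at 23 °C, and all NaCl libraries above those of their own genotype on 1/2 MS. It rose with heat 5.37-fold in exa1-1 and 6.05-fold in wild type (adjusted p = 7.5e-11 and 2.7e-11), and with salt 2.74-fold and 3.10-fold (adjusted p = 0.00074 and 2.7e-05). Of its length, 76.4% has a copy elsewhere in the genome of at least 90% identity, so its counts are uncertain.

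The other 8 of the top 10 followed a range of patterns. AT3G22121, opposite the cell wall linker protein gene CWLP, was highest on 1/2 MS, at 134 ± 15.6 CPM in exa1-1 and 141 ± 35.6 CPM in wild type, and fell under NaCl by 0.99 and 0.85 and under heat by 0.71 and 0.60 on the log2 scale in the same genotypes. AT1G29357 fell 5.32-fold in exa1-1 and 6.12-fold in wild type under heat, and rose 2.69-fold and 2.42-fold under salt. AT4G38932, which faces no annotated gene, did likewise to a lesser extent, at 2.26-fold and 2.11-fold lower under heat and 1.34-fold and 1.62-fold higher under salt. AT1G27921, opposite the microtubule-associated protein gene MAP65-8, fell 4.47-fold in exa1-1 and 6.26-fold in wild type under heat. AT5G18255, opposite a RING/U-box gene, fell 2.99-fold and 2.39-fold and AT4G28652, opposite a receptor-like kinase gene, 2.29-fold and 2.80-fold under heat. AT1G07728, opposite the exocyst subunit gene EXO70H6, was called higher under salt (1.58-fold and 1.46-fold) and under heat (2.04-fold and 1.77-fold), but with total counts in place of TMM its heat call was lost in both genotypes, at a log2 change of 0.03 in exa1-1 and -0.05 in wild type, where the sign turned. AT3G03105, opposite the metallothionein gene MT3, was called higher under heat in wild type, 2.01-fold (adjusted p = 1.6e-07), a call lost with total counts (log2 change 0.13, adjusted p = 0.323), and its heat change in exa1-1, 1.1-fold, missed the threshold.

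Heat called 57 of the 200 members higher and 92 lower in exa1-1, against a background of 38.4% higher and 41.8% lower over the 20972 genes tested. In wild type it called 77 higher and 87 lower, where the background was 38.4% and 41.6%. The members' median log2 change was -0.25 in exa1-1 and -0.16 in wild type, against -0.08 and -0.07 over all genes. The share called higher was 28.5% in exa1-1, below the background, and 38.5% in wild type, and the share called lower was 46% and 43.5%. Without TMM scaling, with total counts alone, the median of all genes moved to -1.08 in exa1-1 and -0.95 in wild type, and the members' calls to 19 higher and 144 lower in exa1-1 and 37 higher and 119 lower in wild type. The members named below for the largest rises and falls with heat kept their direction and their calls under that scaling.

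Apart from AT3G07365, 3 members were near 0 CPM in unheated and far higher in heated seedlings, and since heat alone brought them into the top 200 their differences are given with no test. They are among the higher calls counted above. AT3G03215, wholly opposite PDX1.2, a pseudoenzyme of vitamin B6 synthesis, was at 26.0, 40 and 35.1 CPM in exa1-1 and 30.2, 41.9 and 17.3 CPM in wild type at 39 °C, against 0.206 ± 0.121 CPM and 0.154 ± 0.0536 CPM at 23 °C. AT5G01815, shown above with AT5G10695, was at 18.1, 26.5 and 21.3 CPM in exa1-1 and 21.0, 24.3 and 15.3 CPM in wild type at 39 °C, against 0.184 ± 0.0680 CPM and 0.150 ± 0.167 CPM at 23 °C. AT1G09433, opposite a hydrolase gene, had 531 counts in the 3 libraries of exa1-1 and 1062 in those of wild type at 39 °C, against 8 and 3 counts at 23 °C. In wild type that is a ratio of 694 (95% counting interval 237 to 3369). In each of these RNAs the lowest heated library lay above the highest unheated one.

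Members that ranked high in more groups also rose with heat. The libraries at 39 °C entered the mean share by which they were chosen, so their heat tests are not independent of the choice. AT4G04335, opposite the polyubiquitin gene UBQ14, was at 17.7, 26.2 and 21.7 CPM in exa1-1 and 20.9, 26.7 and 12.4 CPM in wild type at 39 °C, against 1.51, 1.31 and 1.52 CPM and 0.427, 0.904 and 0.493 CPM at 23 °C (15.1-fold, adjusted p = 2.2e-11, and 32.1-fold, adjusted p = 5.9e-12). AT1G67365, opposite ASY1, a protein of the meiotic chromosome axis, was at 29.2, 29.4 and 26.1 CPM in exa1-1 and 20.1, 17.7 and 19.4 CPM in wild type, against 3.70 ± 0.326 CPM and 3.37 ± 0.170 CPM at 23 °C (7.62-fold and 5.65-fold). AT2G08730 rose 7.14-fold in exa1-1 and 11.6-fold in wild type. AT3G01065, wholly within a major facilitator superfamily gene on the other strand, was at 23.7, 24.6 and 23.5 CPM in exa1-1 and 15.3, 14.8 and 15.4 CPM in wild type at 39 °C, against 3.13, 4.27 and 3.5 CPM and 3.33, 3.54 and 2.71 CPM at 23 °C. Its log2 change was 2.72 ± 0.13 (SE, adjusted p = 5e-14) in exa1-1 and 2.25 ± 0.11 (adjusted p = 2.6e-12) in wild type, and that of the opposite gene AT3G01930 was 0.17 ± 0.12 (adjusted p = 0.15) in exa1-1 and 0.42 ± 0.12 (adjusted p = 0.0012) in wild type.

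Because AT3G01065 rose with heat while the gene it faces was not called in exa1-1, its own promoter window is shown, chr3:320417-320716 on the plus strand, from 250 bases before to 50 after its annotated start (RefSeq, TAIR10.1), with matches to the heat shock element core GAANNTTC and the dehydration-response core CCGAC in capitals.
AT3G01065 window: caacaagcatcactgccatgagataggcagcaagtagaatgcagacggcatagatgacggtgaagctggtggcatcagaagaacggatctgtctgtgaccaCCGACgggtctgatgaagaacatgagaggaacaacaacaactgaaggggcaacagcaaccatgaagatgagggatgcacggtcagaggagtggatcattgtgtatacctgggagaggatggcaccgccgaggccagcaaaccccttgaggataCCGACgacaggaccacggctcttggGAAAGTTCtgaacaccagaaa
The GAANNTTC match starts 29 bases after the first base of the transcript. The CCGAC matches start at offsets of -149 and 4 from that base. Searched on both strands, GAANNTTC or its other phase TTCNNGAA occurred in 23% of the members' windows and in 19.45% of 38094 windows of all nuclear genes, and CCGAC in 14.5% and 15.3%. Of the 8 members named for the largest rise with heat, 5 in exa1-1 and 3 in wild type had a match to either phase, as did 3 of the 8 named for the largest fall in each genotype. A match is a description of the letters in the window only.

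Other members fell with heat to near or below 1 CPM. AT1G06265, opposite a cysteine proteinase gene, was at 0.445, 1.14 and 0.230 CPM in exa1-1 and 0.548, 0.220 and 0.495 CPM in wild type at 39 °C, against 10.2, 11.6 and 9.53 CPM and 13.0, 11.2 and 12.3 CPM at 23 °C (17.1-fold lower, adjusted p = 1.9e-11, and 28.7-fold lower, adjusted p = 3.2e-12). AT5G07152, opposite a leucine-rich repeat kinase gene, was at 1.16 ± 0.709 CPM in exa1-1 and 1.37 ± 0.374 CPM in wild type at 39 °C, against 13.4 ± 1.21 CPM and 12.9 ± 1.30 CPM at 23 °C. AT4G26582, opposite the oligopeptide transporter gene OPT5, fell 11.0-fold in exa1-1 and 7.88-fold in wild type. AT3G51075 had 3 counts over the heated exa1-1 libraries against 296 at 23 °C, a ratio of 45.2 (95% counting interval 15.3 to 221) in favour of 23 °C, and fell 15.2-fold in wild type. AT1G69572, opposite a Dof-type zinc finger gene, was at 1.19, 0.762 and 0.765 CPM in exa1-1 and 1.41, 1.69 and 0.919 CPM in wild type at 39 °C, against 7.05, 8.21 and 6.39 CPM and 12.2, 10.8 and 9.93 CPM at 23 °C (7.91-fold and 8.18-fold lower). None of the heated libraries of these RNAs reached the level of an unheated one.

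**Figure D2:**
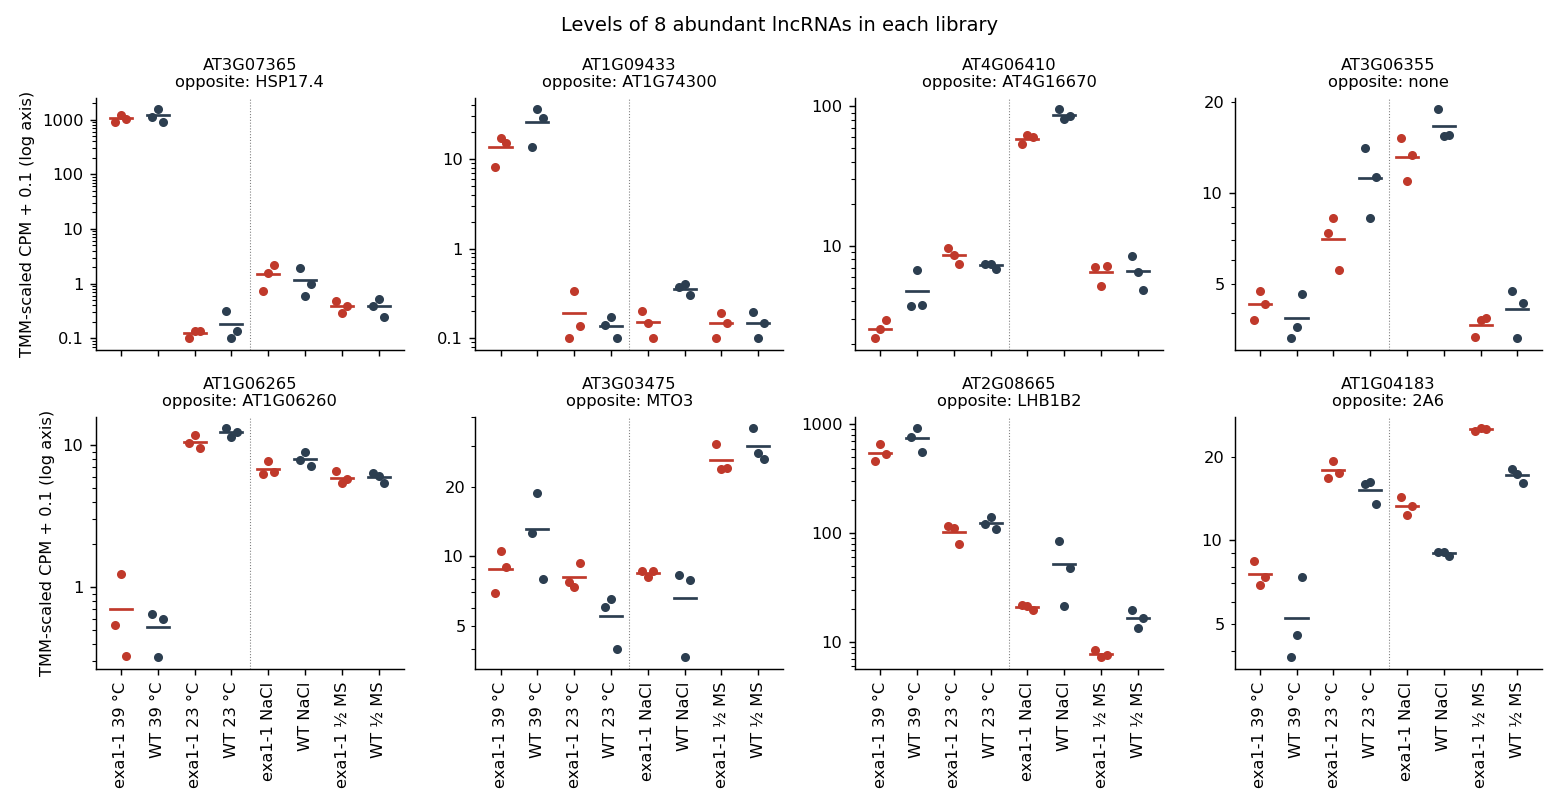
Level of 8 members in each library (points; horizontal lines, group means), as TMM-scaled CPM + 0.1 on a log axis, with heat and salt series scaled separately. AT3G07365 lies between 893 and 1531 CPM in all libraries at 39 °C, and AT4G06410 lies at 53.1 CPM or more in all NaCl libraries and below 10 CPM elsewhere.

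Salt called 74 of 199 members tested higher and 33 lower in exa1-1, against a background of 35.7% higher and 36.2% lower over 21462 genes, and 64 higher and 43 lower in wild type, where the background was 35.3% and 35.6%. In both genotypes the share of members called lower (16.6% in exa1-1 and 21.6% in wild type) was below the background, and the median log2 change was 0.15 and 0.07, against -0.01 in both over all genes. AT1G09433 was not tested in this series. With total counts in place of TMM the calls were 60 higher and 45 lower in exa1-1 and 48 higher and 58 lower in wild type, so the excess of higher calls turned round in wild type. It also turned round there without wild-type replicate 1 under NaCl, at 52 higher and 54 lower with a median of -0.06.

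The largest rise with salt was that of AT4G06410 (chr4:9386180-9387271, minus strand, 2 exons), which faces a gene annotated as an auxin canalization protein. It was at 53.1, 62.1 and 59.5 CPM in exa1-1 and 94.7, 81.1 and 85.1 CPM in wild type under NaCl, against 6.97, 5.05 and 7.13 CPM and 8.40, 6.42 and 4.72 CPM on 1/2 MS. The rise was 9.16-fold in exa1-1 (adjusted p = 1.6e-15) and 13.3-fold in wild type (adjusted p = 8.1e-17), and under NaCl the exa1-1 libraries lay below all wild-type ones (log2 difference -0.58 ± 0.09, SE, adjusted p = 6.2e-05). The opposite gene AT4G16670 rose less, 2.61-fold and 2.33-fold, so the lncRNA had 218% ± 26.3 of its counts in exa1-1 and 341% ± 27.4 in wild type under NaCl, against 61.8% ± 10.1 and 58.7% ± 12.0 on 1/2 MS (SD, n = 3 each). Under heat AT4G06410 moved the other way, 3.47-fold lower in exa1-1 and 1.54-fold lower in wild type.

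Among the other members named for their rise with salt, AT1G05562, AT3G21755 and AT2G36792 each face a gene of a glycosyltransferase, an enzyme that attaches sugars to small molecules. AT1G05562, opposite UGT75B1, was at 25.4 ± 3.00 CPM in exa1-1 and 30.1 ± 9.75 CPM in wild type under NaCl, against 7.42 ± 1.39 CPM and 8.34 ± 0.802 CPM on 1/2 MS. AT3G21755, opposite HYR1, was at 14.5 ± 1.18 CPM in exa1-1 and 17.0 ± 1.36 CPM in wild type, against 3.51 ± 0.219 CPM and 4.75 ± 0.528 CPM. AT2G36792, opposite UGT73C6, rose 3.39-fold in exa1-1 and 6.76-fold in wild type, but 90.8% of its length has a near-identical copy, and its counts are uncertain. AT5G09855, opposite the transcription factor gene MYBR1, rose 3.86-fold in exa1-1 and 2.87-fold in wild type, and AT1G67365 rose 3.5-fold and 3.58-fold. AT1G04463, which salt alone brought into the top 200 and which gets no test, was at 14.4, 10.9 and 11.1 CPM in exa1-1 and 6.30, 8.23 and 8.05 CPM in wild type under NaCl, against 1.80 ± 0.339 CPM and 1.25 ± 0.383 CPM on 1/2 MS.

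AT3G06355 (chr3:14199575-14200076, plus strand) was called higher under salt, 3.65-fold in exa1-1 and 4.09-fold in wild type, yet may not be an lncRNA of its own. On the same strand it holds the whole of the ribosomal RNA gene AT3G41979 (chr3:14199753-14199916), it starts after the end of the ribosomal RNA gene AT3G41768 (chr3:14197677-14199484), and 99.8% of its length has a near-identical copy elsewhere. Its counts cannot be told apart from those of ribosomal RNA precursors.

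Fewer members fell with salt by large amounts. Of 199 tested, 5 in exa1-1 and 4 in wild type were called lower by 1 or more on the log2 scale. By the same measure 29 and 26 were higher. Among 20580 protein-coding genes tested, 2288 in exa1-1 and 2112 in wild type were lower and 2474 and 2303 higher by as much. AT5G03985, opposite DGR2, a gene of the DUF642 family, was at 0.620, 0.498 and 0.353 CPM in exa1-1 and 1.14, 0.753 and 1.27 CPM in wild type under NaCl, against 4.49, 3.52 and 3.90 CPM and 7.77, 6.32 and 8.43 CPM on 1/2 MS (7.99-fold lower, adjusted p = 9e-10, and 7.09-fold lower, adjusted p = 5.4e-11). AT3G03475, opposite the S-adenosylmethionine synthetase gene MTO3, was at 8.37 ± 0.266 CPM in exa1-1 and 6.52 ± 2.57 CPM in wild type, against 26.1 ± 3.92 CPM and 29.9 ± 5.00 CPM. AT3G03265, opposite the tonoplast aquaporin gene DELTA-TIP, fell 2.29-fold in exa1-1 and 3.39-fold in wild type. AT1G04183, opposite the oxygenase gene 2A6, fell 1.90-fold and 1.92-fold, and AT5G18245, opposite the transcription factor gene MYR1, 2.00-fold and 1.95-fold. None of the NaCl libraries of AT5G03985 or AT3G03475 reached those on 1/2 MS.

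In wild type 91 of 199 were called in both responses, which is 55.8% of those called under heat and 85% of those called under salt. Heat called 163 of these 199 members and salt 107, so a large overlap follows from the number of heat calls alone. The same overlap over all genes was not worked out. Of the 91, 24 were higher in both, 24 lower in both, 16 higher under heat and lower under salt, and 27 the reverse. Across the 199 members the log2 changes of these 2 responses, which share no library, correlated at r = 0.21 (Spearman's rho = 0.15). When the heat change was set against the salt change in wild type in 1 fit of all libraries, it was higher in 59 members and lower in 89 of 200, against a background of 34.9% higher and 38.4% lower. AT1G29357 was among the members with opposite responses, with a difference of -3.90 ± 0.11 on the log2 scale (adjusted p = 1.1e-21). For AT4G06410 the difference was -4.37 ± 0.37 (adjusted p = 5.2e-16), and for AT3G03475, which fell with salt, it was 3.46 ± 0.58 (adjusted p = 2.1e-10).

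**Figure D3:**
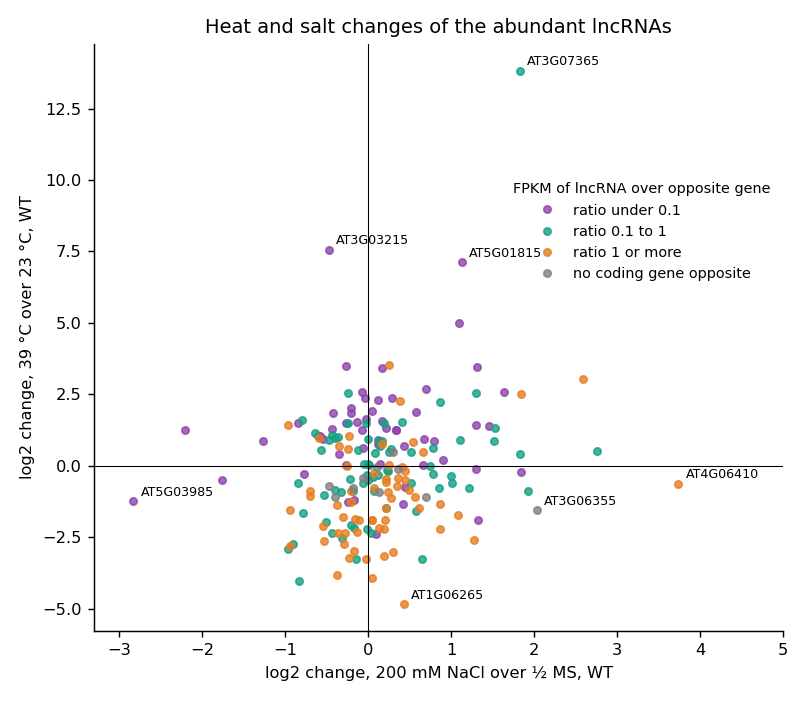
Log2 change of each member with heat (vertical axis) against salt (horizontal axis) in wild type, coloured by its FPKM over that of the opposite gene. The points form no line (r = 0.21), and AT3G07365, with only 6 counts at 23 °C in wild type, is at the top by its fitted change.

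By the deposited FPKM, which are per length, 56 members had under 0.1 of the opposite gene's level, 70 had from 0.1 to 1, and 64 had 1 or more; these borders were set after the values were seen. The members under 0.1 were shorter, with a median exonic length of 671 bases against 1373 and 2054 bases. Leaving out the 6 members that ranked in the top 200 in only 2 groups, the log2 heat changes in exa1-1 of members and opposite genes correlated at r = 0.85 over 54 pairs in the lowest of these classes, 0.47 over 67 in the middle and 0.45 over 51 in the highest. In wild type the values were 0.82, 0.55 and 0.49 for heat. For salt they were 0.88, 0.63 and 0.27 in exa1-1 and 0.90, 0.66 and 0.23 in wild type. The points of these correlations share libraries and, within a pair, a locus. The next counts are over all pairs of a class, with those 6 members not left out. The heat counts thus hold members that heat brought into the list. Among the pairs under 0.1 in which salt called both genes, 22 moved the same way and 1 in opposite ways in exa1-1, and 25 and 0 in wild type, where among pairs of 1 or more it was 13 and 11 in exa1-1 and 12 and 11 in wild type. Under heat most called pairs of both classes moved the same way, with 33 the same and 0 opposite in exa1-1 and 41 and 2 in wild type under 0.1, and 28 and 6 in exa1-1 and 30 and 5 in wild type at 1 or more.

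**Figure D4:**
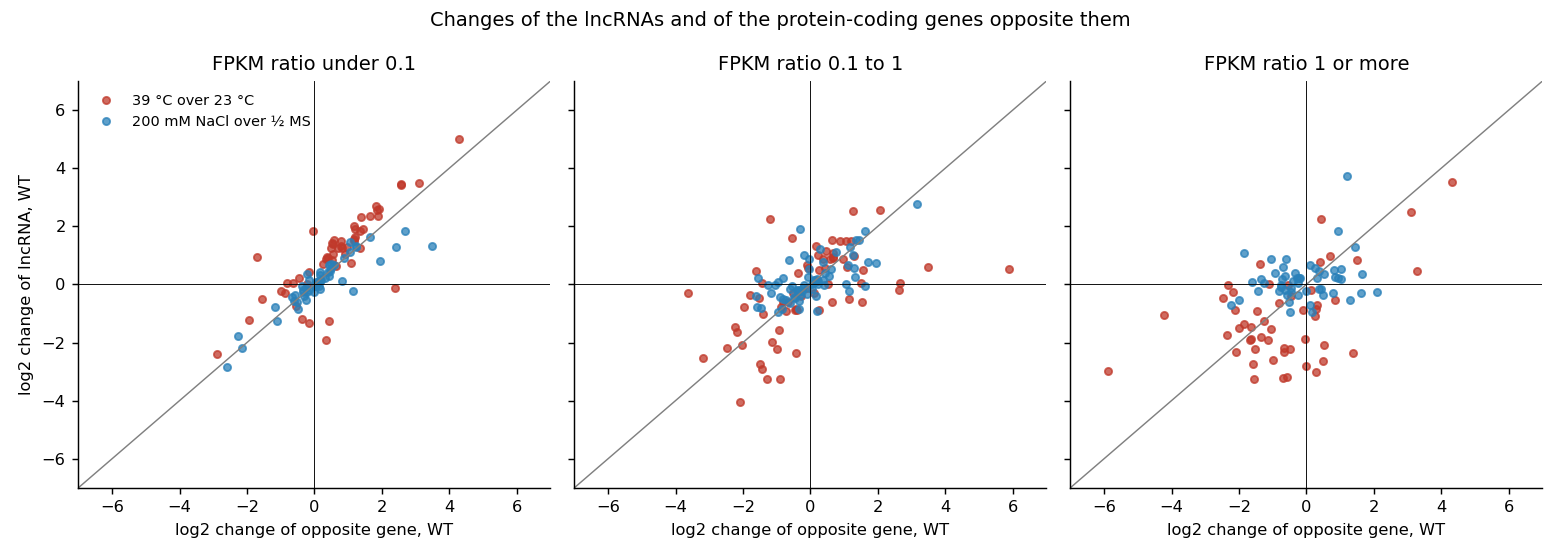
Log2 change of each lncRNA (vertical axis) against that of the protein-coding gene opposite (horizontal axis) for heat and salt in wild type, in 3 classes of their FPKM ratio; the diagonal marks equal changes. In the class under 0.1, salt points lie close to the diagonal and heat points further from it. The median gap between lncRNA and opposite gene over all 56 pairs of that class was 0.12 for salt and 0.63 for heat. Points of the class of 1 or more are scattered. The 6 members in the top 200 of only 2 groups are not drawn.

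In some pairs the group means of the lncRNA's share of the opposite gene's counts lay close together while both levels changed widely. AT2G08665 had 5.81% ± 0.642 of the counts of LHB1B2 in exa1-1 and 6.68% ± 2.46 in wild type at 39 °C, 6.28% ± 0.372 and 4.14% ± 0.960 at 23 °C, 5.75% ± 0.219 and 5.44% ± 2.25 under NaCl, and 5.05% ± 0.495 and 5.78% ± 0.571 on 1/2 MS (SD, n = 3 each). Over the same groups LHB1B2 itself ranged from 152 ± 1.81 CPM in exa1-1 on 1/2 MS to 11530 ± 1663 CPM in wild type at 39 °C. AT3G07365 had 9.30% ± 0.975 of the counts of HSP17.4 in exa1-1 and 10.4% ± 3.13 in wild type at 39 °C, when HSP17.4 was at 11259 ± 389 CPM and 11396 ± 616 CPM. AT3G22121 stayed between 10.2% and 12.6% of the counts of CWLP in all 8 group means. Whether part of these counts are reads from the opposite strand's RNA was not tested.

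Other members parted from the gene they face. AT1G27921 was at 8.22 ± 0.252 CPM in exa1-1 and 6.71 ± 0.0538 CPM in wild type at 39 °C, against 36.8 ± 0.103 CPM and 42.1 ± 0.866 CPM at 23 °C. MAP65-8, which it faces, was at 3.42 ± 0.630 CPM in exa1-1 and 5.39 ± 0.247 CPM in wild type at 39 °C, against 3.30 ± 0.412 CPM and 3.81 ± 0.536 CPM at 23 °C, a rise in wild type (adjusted p = 0.0099). Under salt MAP65-8 rose 4.08-fold in exa1-1 and 2.47-fold in wild type, and the lncRNA fell 1.35-fold and 1.44-fold. AT1G69572 fell under heat in both genotypes while the gene opposite, AT1G69570, rose in exa1-1 (log2 change 1.99 ± 0.48, adjusted p = 0.00045) and was not called in wild type (0.27 ± 0.29, adjusted p = 0.43).

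By the same classes, with no member left out, heat called 25 of the 56 members under 0.1 higher and 10 lower in exa1-1, and 39 higher and 7 lower in wild type. Those are 44.6% and 17.9% in exa1-1 and 69.6% and 12.5% in wild type, against the background of 38.4% higher and 41.8% (exa1-1) or 41.6% (wild type) lower. Of the 64 members of 1 or more, 13 were higher and 44 lower in exa1-1, and 13 higher and 46 lower in wild type, which is 20.3% and 68.8% in exa1-1 and 20.3% and 71.9% in wild type. The median log2 change was 0.42 and 1.26 in the class under 0.1, and -1.19 and -1.20 in the class of 1 or more, for the same 2 genotypes. The list and the classes both rest on means over all libraries, the heated ones included. The heat shares of the classes thus depend in part on that choice and are a description only. With total counts in place of TMM the class under 0.1 had 11 higher and 26 lower in exa1-1 (median -0.57), so its direction turned round there, and 22 higher and 15 lower in wild type. Without wild-type replicate 2 at 39 °C, the class under 0.1 had 32 higher and 10 lower in wild type.

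The count ratio of the pairs under 0.1 differed between libraries of the same group. Relative to each pair's mean, the median log2 ratio over 54 pairs was 0.89 in wild-type replicate 2 at 39 °C, against 0.09 and -0.22 in replicates 1 and 3. In wild type under NaCl it was 0.42, -0.69 and 0.01 in replicates 1, 2 and 3. In exa1-1 under NaCl it lay between 0.04 and 0.11, and in exa1-1 at 23 °C between 0.15 and 0.19. The shift was not particular to this class. Over 54 pairs of 0.1 or more with enough counts, the same measure was -0.13, 0.50 and -0.27 in wild-type replicates 1, 2 and 3 at 39 °C. Under NaCl it was 0.22, -0.41 and 0.05 in the wild-type replicates. As a share of the counts of the opposite genes, the counts of the members under 0.1 were from 2.25% to 6.47% of a library's. In this class 0 members were higher and 8 lower in exa1-1 at 39 °C, and 1 and 2 without wild-type replicate 2. Under NaCl 2 were higher and 2 lower, with 13 and 3 without wild-type replicate 1, and 1 and 8 without wild-type replicate 2.

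**Figure D5:**
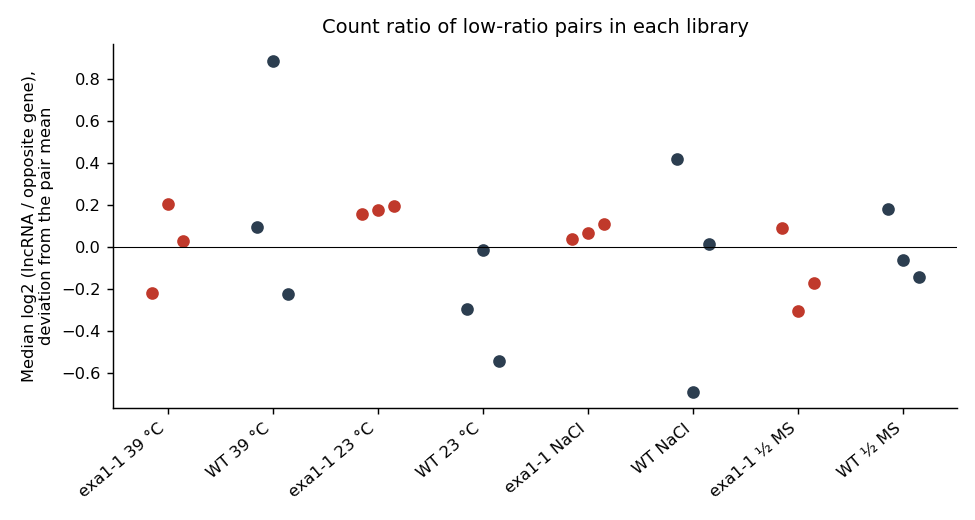
Median log2 count ratio of lncRNA over opposite gene in each library, for the 54 pairs with a low ratio that had enough counts, as the deviation from each pair's mean over all libraries (exa1-1 red, wild type dark blue). Wild-type replicate 2 is highest at 39 °C (0.89) and lowest under NaCl (-0.69), and the exa1-1 groups at 23 °C and under NaCl are tight.

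At 39 °C, 17 were higher and 19 lower in exa1-1 than in wild type, against a background of 12.7% higher and 11.7% lower. At 23 °C, 19 were higher and 7 lower (background 8.27% and 11.2%), under NaCl 19 higher and 15 lower of 199 (15.9% and 13.6%), and on 1/2 MS 8 higher and 13 lower (8.14% and 10.1%). Except for the members higher at 23 °C, at 9.5% near the background, these were smaller shares than the background. The counts depended on single libraries. At 39 °C the members lower in exa1-1 numbered 9 without wild-type replicate 2 and 29 without wild-type replicate 3. Those lower numbered 10 and 12 without exa1-1 replicates 1 and 3, and those higher 10 without wild-type replicate 1 and 11, 11 and 8 without exa1-1 replicates 1, 2 and 3. At 23 °C those higher numbered 10 and 6 without wild-type replicates 1 and 3, and those lower 1, 4 and 3 without wild-type replicate 1 and exa1-1 replicates 1 and 3. Under NaCl those higher numbered 33 and 11 without wild-type replicates 1 and 3 and 11 and 10 without exa1-1 replicates 1 and 3, and those lower 23 without wild-type replicate 2 and 9 without exa1-1 replicate 2. On 1/2 MS those higher numbered 5 without wild-type replicate 2 and 4 without exa1-1 replicate 1, and those lower 8 without wild-type replicate 1 and 7 without exa1-1 replicate 2 or 3.

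Over the 4 conditions, 121 members were called in none, 44 were higher in exa1-1 in at least 1 and 14 in at least 2, and 37 were lower in at least 1 and 16 in at least 2. The matching shares over all genes were not worked out, so these counts do not set the members apart from other genes. Only AT4G37432, opposite the cytochrome P450 gene CYP91A2, was higher in all 4; it is named here after its values were seen. It was at 12.3 ± 0.322 CPM in exa1-1 and 9.69 ± 0.675 CPM in wild type at 39 °C, at 17.6 ± 1.28 CPM and 14.3 ± 1.38 CPM at 23 °C, at 27.1 ± 1.51 CPM and 19.0 ± 1.77 CPM under NaCl, and at 21.4 ± 1.04 CPM and 16.4 ± 0.607 CPM on 1/2 MS. The exa1-1 libraries lay above all wild-type libraries of their condition, by 1.27-, 1.23-, 1.43- and 1.31-fold, with adjusted p of 0.029, 0.019, 2.8e-05 and 0.0013. The call at 39 °C was lost under 7 alternatives and that at 23 °C under 2, with no change of direction. AT1G33415, AT1G04183 and AT2G42247 were higher in 3 conditions. AT1G04183, opposite 2A6, was at 13.2 ± 1.03 CPM in exa1-1 and 8.89 ± 0.195 CPM in wild type under NaCl (adjusted p = 4e-05) and at 25.1 ± 0.240 CPM and 17.1 ± 1.04 CPM on 1/2 MS (adjusted p = 1.6e-05), and 2A6 was not called on 1/2 MS (log2 difference -0.02 ± 0.06, adjusted p = 0.90).

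AT2G08665 was the one member lower in exa1-1 in 3 conditions, by 0.44 at 39 °C, 1.29 under NaCl and 1.11 on 1/2 MS on the log2 scale, with adjusted p of 0.048, 0.0012 and 0.031. LHB1B2, opposite it, was lower in exa1-1 under NaCl and on 1/2 MS too, by 1.28 and 0.91, and at 39 °C its difference of -0.29 ± 0.14 missed the threshold (adjusted p = 0.14). The summed level of the shoot markers was also lower in exa1-1, at 5224 to 5476 CPM in exa1-1 and 8687 to 9679 CPM in wild type under NaCl, at 4500 to 4719 CPM and 4947 to 5806 CPM on 1/2 MS, and at 13761 to 14052 CPM and 15660 to 18017 CPM at 39 °C. All 3 of the list were called lower in exa1-1 under NaCl (median log2 difference -0.84) and on 1/2 MS (-0.26), and 1 of 3 at 39 °C. At 23 °C, 4 of 4 root markers were called higher in exa1-1, with a sum of 1336 to 1889 CPM in exa1-1 and 1152 to 1171 CPM in wild type. The part of these markers in the results was not tested. At 39 °C the call of AT2G08665 was lost under 7 alternatives. On 1/2 MS the call of AT2G08665 was lost without wild-type replicate 1 or 3 or any exa1-1 replicate, though its exa1-1 libraries, at 7.14 to 8.43 CPM, lay below the wild-type ones, at 13.4 to 19.8 CPM. AT1G69572 was lower in exa1-1 at 23 °C (7.21 ± 0.923 CPM in exa1-1 and 11.0 ± 1.12 CPM in wild type, adjusted p = 0.0039) and under NaCl (2.98 ± 0.749 CPM and 4.70 ± 0.118 CPM, adjusted p = 0.0093; lost without exa1-1 replicate 2). AT2G33051, opposite the receptor-like protein gene RLP26, was at 8.15 ± 0.350 CPM in exa1-1 and 12.2 ± 0.614 CPM in wild type under NaCl (adjusted p = 6.1e-05). AT3G24518, opposite the heat stress transcription factor gene HSFC1, was at 2.23, 3.28 and 2.30 CPM in exa1-1 and 4.54, 7.40 and 4.17 CPM in wild type at 39 °C (adjusted p = 0.0019), and HSFC1 was lower as well, by 0.72 (adjusted p = 0.00029). AT3G21755 and AT4G13918 were higher in one condition and lower in another.

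The response to heat differed between genotypes in 19 members, higher in exa1-1 in 3 and lower in 16, against a background of 4.36% higher and 3.69% lower; the response to salt differed in 3, higher in 2 and lower in 1, where the background was 6.02% and 5.16%. Those lower under heat numbered 6 without wild-type replicate 3 at 23 °C, 8 without wild-type replicate 2 at 39 °C and 7 without exa1-1 replicate 1 or 3 at 39 °C, and those higher 1 without wild-type replicate 1 or 3 at 23 °C. For salt, those higher numbered 10 without wild-type replicate 1 under NaCl and 0 or 1 without any other library except wild-type replicate 2 on 1/2 MS (3); those lower numbered between 0 and 3. AT3G03105 had a heat change in exa1-1 that was lower than in wild type by 0.87 ± 0.22 on the log2 scale (adjusted p = 0.0032).

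Of the members called under heat in exa1-1 92.6% were called in wild type and of those in wild type 84.1% in exa1-1, all 138 in the same direction. Heat called 149 of the 200 in exa1-1 and 164 in wild type, so a high overlap follows in part from the number of calls. The log2 changes correlated at r = 0.97 over 200 members, among them the 4 that entered the list through the 39 °C groups. The same overlaps and correlations over all genes were not worked out. Under salt 84 members were called in both, 78.5% of each list and all in the same direction, with r = 0.93 over 199.

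Set against the 1/2 MS controls, the 23 °C controls had 102 of 197 members higher and 47 lower, against a background of 37.4% higher and 38.4% lower, with a median log2 difference of 0.27, against -0.01 over all genes. AT3G07365, AT5G01815 and AT1G09433 were not tested in this comparison. AT2G08665 had the largest difference named, 3.86 ± 0.13 on the log2 scale (adjusted p = 4.1e-16), with LHB1B2 at 3.96 ± 0.13. AT3G13061, opposite ECT5, a reader of methylated adenosine in RNA, entered the list through the 23 °C groups, where it was at 5.82 ± 0.705 CPM in exa1-1 and 6.86 ± 1.13 CPM in wild type, against 1.14 ± 0.0568 CPM and 1.2 ± 0.170 CPM on 1/2 MS. A difference between the 2 series in how they were run cannot be told apart from one between their control conditions.

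AT1G69572 was the only member on the lists of characterised non-coding RNAs. The precursors of trans-acting small interfering RNAs, which are cut into small RNAs that silence messenger RNAs, were lower in 5 of 5 tested under heat and salt in both genotypes, where the background called lower was 41.8% and 41.6% for heat and 36.2% and 35.6% for salt, with median log2 changes of -3.78 in exa1-1 and -2.24 in wild type for heat and -1.34 and -1.29 for salt. TAS2 was at 3.20 and 6.98 CPM at 39 °C in exa1-1 and wild type, against 17.3 and 20.8 CPM at 23 °C. Of the 7 genes of their synthesis 6 fell under heat in exa1-1 and 7 in wild type, and 0 rose in either, against the background of 41.8% and 41.6% lower. Of 11 genes for the decay of non-coding transcripts 1 rose and 4 fell under heat in exa1-1, and 1 rose and 5 fell in wild type, where 38.4% of all genes were called higher in each genotype. The phosphate target mimic AT4, which the table lists as protein coding, was at 16.5 CPM in exa1-1 and 31.5 CPM in wild type under NaCl (adjusted p = 0.00037), against 16.0 and 15.5 CPM on 1/2 MS.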

How the data were processed

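The submitters' processing notes name HISAT2 2.0.4, HTSeq 0.6.1p1 and TAIR10. The authors deposited raw counts and FPKM per gene. The labels call the libraries strand-specific, and which strand setting was used for counting is not given in the sources here. Of the 35 members wholly within exons of the opposite gene, 33 had a median count of at least 10. Reads of a gene and its antisense partner may still be mixed in part, which was not tested.

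The members were ranked on counts. Counts were tested over all genes with edgeR 4.0.16 (R 4.3.3), using TMM, filterByExpr, the quasi-likelihood test and Benjamini-Hochberg adjustment, per series (12 libraries each) and, for heat against salt, over all 24. SEs are from log2 CPM with a prior count of 2. FPKM gave the ratio classes. Intervals of count ratios are 95% and cover counting error only. Positions and sequences are from RefSeq TAIR10.1, copies from BLAST+ 2.17.0. The fit was tested on simulated data.

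Members and lists were chosen with earlier results of these data known. Named are the 10 most abundant members, and per treatment response up to 8 (other contrasts 5) of the largest changes each way with an adjusted p under 0.05, at least 1 CPM and no overlap between groups (not asked of interactions), with list members, opposite genes and the border members. Alternatives were total-count and DESeq2 scaling, no filter, DESeq2 1.42.0, limma 3.58.1 on log2 of FPKM + 0.1, a replicate block, other member rules and leaving out each replicate.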

Additional observations from a re-analysis of the deposited data

Results flagged for a closer look

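The 11 members here are those named by the rule among all whose response differed between genotypes by a test of the difference itself (edgeR, Benjamini-Hochberg adjusted). All calls were 3 higher and 16 lower of 200 under heat, where 4.36% and 3.69% of all genes were called. Under salt they were 2 higher and 1 lower of 199, where 6.02% and 5.16% of all genes were called. Each difference is exa1-1 minus wild type on the log2 scale. Under salt, AT3G05905 changed by -0.01 in exa1-1 and by -0.77 in wild type, a difference of 0.75 ± 0.21 (SE, adjusted p = 0.026). AT1G20691 changed by 0.48 in exa1-1 and -0.24 in wild type, a difference of 0.72 ± 0.25 (adjusted p = 0.028). AT5G48775 changed by 0.33 in exa1-1 and 0.87 in wild type, a difference of -0.54 ± 0.17 (adjusted p = 0.045).

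Under heat, 3 members fell more in wild type. The difference was 0.71 ± 0.17 in AT4G13918 (0.01 in exa1-1 and -0.70 in wild type, adjusted p = 0.019), 0.52 ± 0.14 in AT2G45315 (0.07 and -0.46, adjusted p = 0.03) and 0.49 ± 0.03 in AT1G27921 (-2.16 and -2.65, adjusted p = 0.01).

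In 5 others the heat change was higher in wild type. AT2G09225, opposite the calmodulin gene CAM2, changed by 0.46 in exa1-1 and 1.85 in wild type, a difference of -1.39 ± 0.39 (adjusted p = 0.042). AT3G03025, opposite PRPS20, changed by 0.95 and 2.31, a difference of -1.36 ± 0.34 (adjusted p = 0.011). AT1G08657 changed by 0.18 and 1.48, a difference of -1.31 ± 0.38 (adjusted p = 0.04). AT2G08440, opposite GPX2, changed by 0.11 and 1.40, a difference of -1.28 ± 0.37 (adjusted p = 0.045). AT1G05207, opposite the light-harvesting protein gene LHCB6, changed by 2.17 and 3.41, a difference of -1.24 ± 0.36 (adjusted p = 0.0093). These calls and those above were lost under between 0 and 11 of the alternatives, and AT3G03025 and AT1G05207 kept theirs under all that were run.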

How the results depend on the processing

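Of 192 called changes of single members given above, 135 chosen by the rule and 57 others, the call was kept 2306 times and lost 194 times over the settings with no change of sign, and the sign turned in 1. That was the heat change of AT1G07728 in wild type, at -0.05421 with total counts and -0.04886 with limma. In exa1-1 its heat call was lost under both, as was that of AT3G03105 in wild type. Of the heat and salt responses among these, the salt call of AT3G07365 in wild type alone was lost besides. With total counts in place of TMM, members called higher numbered 37 with heat in wild type, 19 in exa1-1 (144 lower), 38 for heat against salt, 31 (4 lower) for exa1-1 against wild type at 23 °C and 10 at 39 °C. With limma on log2 of FPKM + 0.1 they numbered 31 with heat in wild type, 19 in exa1-1 (146 lower), 39 for heat against salt, 8 at 39 °C, and 0 for either interaction; those lower numbered 0 at 23 °C, 6 on 1/2 MS and 0 for the salt interaction. DESeq2 gave 9 lower under NaCl and 4 at 23 °C. With members chosen by mean FPKM, those lower numbered 57 with heat in wild type, 58 for heat against salt, 7 on 1/2 MS and 0 for the salt interaction (0 higher). Without a filter the salt interaction had 3 lower. With members chosen by median share, the difference in their share of all counts with heat was -0.05486 percentage points in wild type, reversed, and -0.09891 in exa1-1. The causes were not tested.

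Leaving out each replicate gave these ranges of members higher and lower: heat 51 to 56 and 87 to 92 in exa1-1, 66 to 80 and 84 to 93 in wild type; salt 65 to 69 and 31 to 35 in exa1-1, 52 to 73 and 34 to 54 in wild type. For exa1-1 against wild type they were 8 to 14 and 9 to 29 at 39 °C, 6 to 20 and 1 to 5 at 23 °C, 10 to 33 and 9 to 23 under NaCl, and 4 to 8 and 7 to 15 on 1/2 MS. The heat interaction had 1 to 4 and 6 to 19, the salt interaction 0 to 10 and 0 to 3, heat against salt 52 to 67 and 85 to 96, and the control sets 96 to 105 and 42 to 46.

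With the replicate number as a block, the salt interaction had 2 lower and no other count moved by over 1.5 times. The numbers do not pair the samples: same-numbered deviations correlated between -0.045 and 0.093, and at 39 °C alone did all 3 correlate best with their own number. Depth limits members near 0 in one group, whose ratios span wide counting intervals.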
